A study of Rattus norvegicus with 6 samples.

Results

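The sarcomere structural genes considered here were 10 genes listed by name: Tnnt2, Tnni3, Tnnc1, Tpm1, Ttn, Mybpc3, Actn2, Tcap, Myom1 and Myom2. They were looked up by gene name in the deposited table of read counts, and 8 of the 10 had a row among the 22250 genes. Ttn, which encodes the giant spring protein titin, and Tcap, which encodes the titin cap protein telethonin, had no row under these names and were not analysed here. A row described as titin-cap but carrying the clone-derived name AABR07030443.2 (ENSRNOG00000060511) held between 0 and 2 reads in each heart, below the floor of 3 reads, and was not counted among the 8. All 8 genes with a row passed the filter on low counts.

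The sarcomere is the contractile unit of heart muscle, in which thin filaments of actin slide past thick filaments of myosin. Tropomyosin and the troponin complex sit on the thin filament and make contraction depend on calcium, cardiac myosin-binding protein C sits on the thick filament, and the thin and thick filaments are anchored at the Z-disc and the M-band, respectively. These transcripts are among the most abundant of the cardiomyocyte, and several of their proteins are measured in blood as markers of myocardial injury.

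RNA was sequenced from left ventricular myocardium of 6 wild-type Sprague-Dawley rat hearts taken on day 1 after heterotopic transplantation. In this model the graft is added to the recipient, which keeps its own heart. Of the 6 donor hearts, 3 came from young rats aged 10 weeks and 3 from aged rats aged 1 year, and all had been kept cold in University of Wisconsin (UW) solution before they were transplanted into young recipients. The question was how aged and young donor hearts differ after this procedure. No heart that had not been transplanted was part of the comparison, so donor age was compared only after storage and transplantation. The hearts are named by the animal numbers of their labels, young 3, 13 and 15 and aged 3, 4 and 7. Young 3 and aged 3 are different hearts. Because each library holds RNA from all cells of the tissue, fewer cardiomyocytes and less sarcomere RNA per cardiomyocyte cannot be told apart.

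The libraries held 21457509 to 24560869 reads assigned to genes. Aged 3 and young 15 stood apart from their groups, and results are therefore given with and without each of them. Young 3 and young 13 were the closest pair, with counts that differed by a chi-square of 10.2 for each degree of freedom (13357 genes), against 496 and 529 when either was set against young 15. The 12 cardiomyocyte genes outside the sarcomere, such as Atp2a2 and Ryr2, had a summed level of 6489.9 to 47518 CPM in the young donor hearts and of 578 to 4851 CPM in the aged ones, where CPM is the read count relative to the library total after TMM scaling. The lowest of these 6 sums was that of aged 3, in which none of the 12 genes was at 0, and in young 15 the sum was 6489.9 CPM. The 10 neutrophil genes summed to between 126 and 212 CPM in the young group, where young 15 was the highest, and to between 471 and 1739 CPM in the aged group, where aged 3 was the highest. Ncf1 alone was at 124, 117 and 47.7 CPM in young 3, 13 and 15, and so made up most of the sum in young 3 and 13. In aged 3, 4 and 7 it was at 126, 90.2 and 92.7 CPM. A gene was called lower or higher where its fold change was under 0.67 or above 1.5 and its unadjusted p was under 0.05 by edgeR's quasi-likelihood test, and these are the limits referred to throughout. Of the marker genes tested, 6 of 12 for cardiomyocytes, 5 of 9 for fibroblasts, 2 of 7 for smooth muscle and 1 of 5 for red blood cells were lower in aged donor hearts. Over all genes the lower share was 19.0%. By the same limits, 7 of 10 neutrophil, 5 of 9 macrophage and 2 of 5 T cell genes were higher, where 13.2% of all genes were. Among 9 endothelial genes 1 was lower and 1 was higher, the 6 atrial genes divided in the same way, and 0 of 6 skeletal muscle genes passed the limits. These counts moved with the hearts that stood apart. Without aged 3, 9 cardiomyocyte, 6 fibroblast, 2 smooth muscle and 2 red blood cell genes were lower, where 14.7% of all genes were. In that fit 3 neutrophil, 2 macrophage, 1 T cell and 0 endothelial genes were higher, where 7.47% of all genes were. Without young 15, 9 cardiomyocyte, 4 fibroblast, 3 smooth muscle, 2 endothelial and 2 red blood cell genes were lower, where 24.2% of all genes were. There 9 neutrophil and 9 macrophage genes were higher, where 26.9% of all genes were. The number of higher atrial genes was 2 in both of these fits, and that of lower atrial genes was 2 without young 15. Aged 4 stood apart in the atrial genes, with a mean log2 CPM of 4.82 against 2.09 in aged 7, a lower value still in aged 3 and 2.35 to 3.74 in the young donor hearts. Myl7, the atrial myosin light chain, was at 69.1 CPM in aged 4 and at 49.7 CPM in young 3, against 0.263 to 5.60 CPM in the other 4 hearts. The part of cell composition in the sarcomere results was not tested.

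The promoters of 4 members are shown because letters of motifs known from cardiac genes lie close to their start sites. RefSeq gave promoters for 6 of the 8 measured members, in 7 entries of the GRCr8 assembly. The 120 bases before each start are written 5′ to 3′ on the strand of the gene. Capitals mark matches, on either strand, to the MCAT element CATTCC, to GATAA, which is read by GATA factors, or to the MEF2 site.
Tnnt2, cardiac troponin T (chr13:49819003-49819122, plus strand): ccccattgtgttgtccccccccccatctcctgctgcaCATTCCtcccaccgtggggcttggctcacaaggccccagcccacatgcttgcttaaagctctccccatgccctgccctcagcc
Tnni3, cardiac troponin I (chr1:78342451-78342570, plus strand): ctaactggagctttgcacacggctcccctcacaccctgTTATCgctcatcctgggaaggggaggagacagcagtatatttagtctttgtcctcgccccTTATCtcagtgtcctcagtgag
Mybpc3, cardiac myosin-binding protein C (chr3:97550941-97551060, plus strand): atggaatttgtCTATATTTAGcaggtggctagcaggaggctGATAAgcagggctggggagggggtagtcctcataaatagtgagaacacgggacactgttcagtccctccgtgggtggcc
Tpm1, tropomyosin 1 (chr8:76543416-76543535, minus strand): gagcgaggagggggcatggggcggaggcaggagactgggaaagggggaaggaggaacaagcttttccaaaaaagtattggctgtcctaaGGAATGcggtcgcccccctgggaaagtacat
The start sites used for Mybpc3 and Tpm1 lie 87 and 246 bases inside the gene as RefSeq draws it. Tnnt2 had 2 of the 7 entries. Its second start site, not shown, lies 4936 bases inside the gene, and that of Myom1, also not shown, lies 4599 bases inside.

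Over the 250 bases before each start, CATTCC was found in 2 of the 7 entries (Tnnt2 and Tpm1) and in 12.1% of 33469 rat promoters. GATAA was found in 3 entries (Tnnt2, Tnni3 and Mybpc3), against 23.5% of all promoters. In Tnni3 the match lay on the opposite strand at 82 to 78 and again at 22 to 18 bases before the start, and in Mybpc3 at 79 to 75 bases before it. The MEF2 site was found in 1 entry, Mybpc3, at 109 to 100 bases before the start, and in 2.96% of all promoters. The E-box CANNTG was found in 6 of the 7 entries and in 65.5% of promoters. TATAAA and the CArG box were found in 0 of the 7 entries, against 12.9% and 1.497%, respectively. Both strands were searched in each case, and no match overlapped another. A match describes letters and is not a measured binding site.

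Taken as 1 group, the 8 genes were lower in aged donor hearts at each gene's mean, but the hearts of each group differed widely. They took 2.55% of all reads in young 3 (95% Wilson interval 2.54% to 2.56%), 2.50% in young 13 (2.49% to 2.51%) and 0.896% in young 15 (0.892% to 0.900%). In the aged donor hearts they took 0.0326% in aged 3 (0.0319% to 0.0334%), 0.623% in aged 4 (0.620% to 0.627%) and 0.605% in aged 7 (0.602% to 0.608%). These intervals cover counting error only. The shares did not overlap between the groups, and the smallest p an exact permutation test of 3 against 3 hearts can give is 0.1.

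Cardiac troponin T, encoded by Tnnt2 (ENSRNOG00000033734, chromosome 13, 52662996 to 52680990, plus strand), ties the troponin complex to tropomyosin. Its level was 8243, 8467 and 2123 CPM in young 3, 13 and 15 and 37.4, 1573 and 1720.2 CPM in aged 3, 4 and 7. The groups did not overlap, with aged 3 far below every other heart and young 15 closer to aged 4 and 7 than to the other young hearts. The means were 6278 ± 3599.8 CPM in young and 1110.3 ± 932 CPM in aged donor hearts (SD, n = 3 each). The fitted log2 fold change was -2.50 (SE 1.298) and did not pass the limits by edgeR's quasi-likelihood test (Benjamini-Hochberg adjusted p = 0.209).

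Cardiac troponin I, encoded by Tnni3 (ENSRNOG00000018250, chromosome 1, 72882806 to 72886488, plus strand), is the inhibitory subunit, which holds actin and myosin apart at low calcium. Tnni3 stood at 2267, 2162 and 300.1 CPM in young 3, 13 and 15 and at 7.32, 259 and 304 CPM in aged 3, 4 and 7. The groups overlapped, because young 15 lay between aged 4 and aged 7. The log2 fold change of -3.05 (SE 1.35) did not pass the limits by edgeR's quasi-likelihood test (adjusted p = 0.162).

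Tnnc1 (ENSRNOG00000018943, chromosome 16, 7292096 to 7295465, plus strand) encodes troponin C, the calcium-binding subunit of cardiac and slow skeletal muscle. Tnnc1 measured 2332, 2287 and 814 CPM in the young donor hearts and 11.5, 709 and 503 CPM in the aged ones, in the same order of hearts. No aged heart reached a young one, but young 15 and aged 4 lay close together. Its fitted difference was the smallest of the 8 genes, a log2 fold change of -2.15 (SE 1.25), and did not pass the limits (edgeR's quasi-likelihood test, adjusted p = 0.246).

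Tropomyosin 1, encoded by Tpm1 (ENSRNOG00000018184, chromosome 8, 72814740 to 72842228, minus strand), runs along the thin filament and covers the myosin-binding sites of actin. Tpm1 is also transcribed outside muscle. Its level was 8954, 8579 and 2416 CPM in young 3, 13 and 15 and 185, 1726 and 1356 CPM in aged 3, 4 and 7. Again the groups were separate, and aged 3 kept a larger share of the young level than it did for any other member. Tpm1 passed the limits (log2 fold change -2.61, SE 0.97), although its adjusted p was 0.122 by edgeR's quasi-likelihood test. That call was lost when any 1 of young 3, young 13, aged 4 or aged 7 was left out, with adjusted p between 0.197 and 0.308.

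Cardiac myosin-binding protein C, encoded by Mybpc3 (ENSRNOG00000012307, chromosome 3, 79940561 to 79958730, plus strand), binds the thick filament and regulates how myosin heads reach actin. Mybpc3 was measured at 4212, 5000.0 and 1131 CPM in the young donor hearts and at 8.37, 563 and 571 CPM in aged 3, 4 and 7. All aged hearts lay below all young ones, and aged 4 and 7 were nearly equal. The log2 fold change was -3.18 (SE 1.396), short of the limits by edgeR's quasi-likelihood test (adjusted p = 0.160).

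Actn2 (ENSRNOG00000017833, chromosome 17, 66304501 to 66397653, minus strand) encodes alpha-actinin 2, the crosslinker of actin at the Z-disc. Actn2 stood at 2669, 3015 and 1012 CPM in young 3, 13 and 15 and at 5.22, 458 and 315 CPM in aged 3, 4 and 7. The groups did not overlap, and young 15 kept a larger share of the young mean, 45.3%, than it did for any other member. The log2 fold change was -3.10 (SE 1.36), and Actn2 did not pass the limits (edgeR's quasi-likelihood test, adjusted p = 0.160).

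Myomesin 1, encoded by Myom1 (ENSRNOG00000057701, chromosome 9, 119353840 to 119468715, plus strand), crosslinks thick filaments at the M-band. Myom1 stood at 1269, 1457 and 232 CPM in the young donor hearts and at 4.11, 87.5 and 68.6 CPM in the aged ones. There was no overlap, and even young 15 was above the highest aged heart by 2.65 times. Its fitted fall was the largest of the 8 genes, an 18.5-fold lower level (log2 fold change -4.21, SE 1.24), and passed the limits by edgeR's quasi-likelihood test (adjusted p = 0.0939). The call held when any 1 heart was left out.

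Myomesin 2, encoded by Myom2 (ENSRNOG00000011754, chromosome 16, 79587640 to 79671719, minus strand), is a second crosslinker of the M-band. Myom2 was measured at 3147, 3137 and 216 CPM in young 3, 13 and 15 and at 4.73, 139 and 379 CPM in aged 3, 4 and 7. The groups overlapped, because aged 7 lay above young 15. Young 3 exceeded young 15 by 14.6 times for Myom2, against 2.64 times for Actn2, the lowest ratio of the 8 genes. The log2 fold change of -3.64 (SE 1.6001) did not pass the limits by edgeR's quasi-likelihood test (adjusted p = 0.160).

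**Figure D1:**
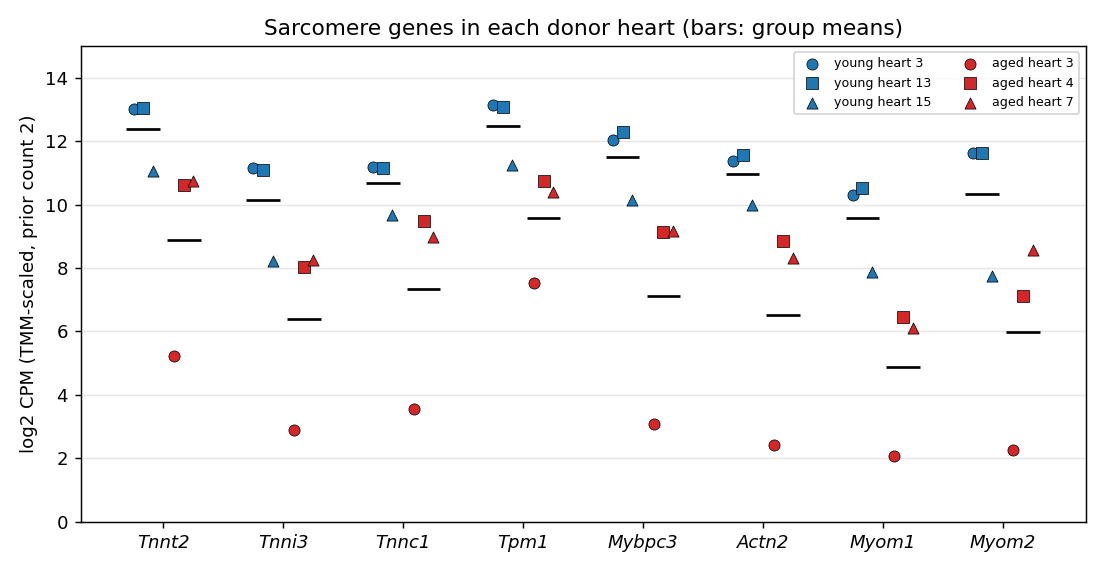
Level of each of the 8 sarcomere genes in each of the 6 hearts, in log2 CPM with TMM scaling and a prior count of 2. Blue points are young donor hearts 3, 13 and 15, red points are aged donor hearts 3, 4 and 7, and black bars are group means. Aged 3 is the lowest heart for every gene, and young 15 lies below young 3 and 13, overlapping the aged hearts for Tnni3 and Myom2.

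Aged 3 and young 15 were the lowest hearts of their groups for every member, while the order of the other hearts differed between members. Young 13 lay within 0.954 to 1.19 times young 3, whereas young 15 held between 9.95% (Myom2) and 45.3% (Actn2) of the mean of the young group. Aged 3 held between 0.218% (Myom2) and 2.78% (Tpm1) of that mean, with a median of 0.440%. These levels rested on 125 reads for Myom1 to 5622 reads for Tpm1 and so were above the floor of 3 reads. Aged 4 held between 6.41% and 39.2% and aged 7 between 6.96% and 27.7%. The highest of these shares was that of Tnnc1 in both hearts. The mean of the aged group lay between 5.41% (Myom1) and 22.5% (Tnnc1) of the young mean.

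**Figure D2:**
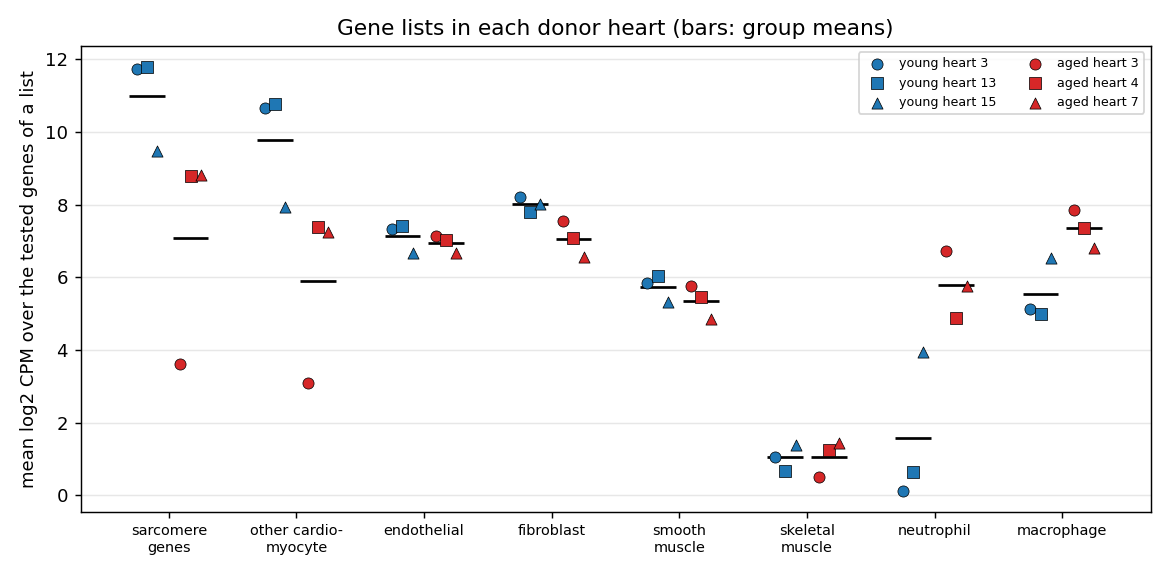
Mean log2 CPM in each heart over the tested genes of each list, for the 8 sarcomere genes, the cardiomyocyte genes outside the sarcomere and markers of endothelial cells, fibroblasts, smooth muscle, skeletal muscle, neutrophils and macrophages. Blue points are young and red points aged donor hearts, and black bars are group means. The member mean falls from 11.79 in young 13 to 3.63 in aged 3, and the cardiomyocyte genes outside the sarcomere fall from 10.77 to 3.08 in the same hearts.

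The cardiomyocyte genes outside the sarcomere were ordered much like the members across the hearts. Their mean log2 CPM was 10.65, 10.77 and 7.93 in young 3, 13 and 15 and 3.08, 7.38 and 7.26 in aged 3, 4 and 7. The member means were 11.73, 11.79 and 9.49 in the young and 3.63, 8.80 and 8.81 in the aged donor hearts. The neutrophil mean had the opposite order at its extremes, with 0.13 and 0.64 in young 3 and 13, 3.95 in young 15 and 6.74 in aged 3. Endothelial genes varied less, from 6.66 in young 15 to 7.41 in young 13, and aged 3 lay within that range at 7.15. Fibroblast genes were at 7.55 in aged 3, between aged 7 at 6.57 and young 3 at 8.20. Reads from the 13 mitochondrial genes made up 21.7% in each of young 3 and 13, 11.9% in young 15 and 6.56% to 10.3% in the aged donor hearts. The part of each of these in the member levels was not tested.

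In the comparison of all 6 hearts, 2 of the 8 genes (Tpm1 and Myom1) passed the limits. Over all 13784 genes tested, 19.0% were lower in aged donor hearts by the same limits and 13.2% were higher, so that the members' share was near that of all genes. The median log2 fold change of the 8 genes was -3.08, against 0.016 for all genes, and all 8 fitted values were negative. With libraries scaled to the 12 cardiomyocyte genes outside the sarcomere, however, Tnnt2, Tnni3, Tnnc1 and Tpm1 turned positive, the median was -0.036 and 0 of the 8 genes passed the limits. Under that scaling the median of all genes was 4.64. Adjusted p-values by edgeR's quasi-likelihood test were under 0.05 for 0 of all genes, with 4731 genes at an unadjusted p under 0.05 and a smallest adjusted p of 0.0916. The split of calls between lower and higher depended on the scaling, since 59.1% of the genes that passed were lower with TMM scaling, 41.4% with totals without mitochondrial genes and 31.4% with library totals alone, while the same 2 member calls were counted under each. The number of members past the limits was 8 by DESeq2's Wald test, where 21.2% of all genes were lower by these limits, and 8 by limma-voom with quality weights, where 27.7% were. Adjusted p of the 8 genes ran from 0.00088 (Myom1) to 0.120 (Tnnc1) by DESeq2's Wald test. By limma-voom it ran from 0.00157 (Myom1) to 0.0334 (Tnnc1), so that the adjusted result depended on the test.

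For 6 of the 8 genes the young and aged donor hearts did not overlap, all lower in aged, as was the case for 20.6% of all genes tested. The exact permutation test of log2 CPM gave p = 0.1 for these 6 genes, the smallest p it can give with 3 hearts in each group, and p = 0.2 for Tnni3 and Myom2.

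Aged 3 and young 15 moved the count of members in the same direction when they were left out. Without aged 3, 6 of the 8 genes passed the limits, against 14.7% of all genes. The 2 that did not were Tnnt2 and Myom2, and the median log2 fold change was -2.50. Adjusted p-values in that fit were 0.205 to 0.227 for the 8 genes by edgeR's quasi-likelihood test, and 0.205 was the smallest of any gene. Without young 15, 5 of the 8 genes passed (Tnni3, Tpm1, Mybpc3, Myom1 and Myom2), against 24.2% of all genes. In that fit Tpm1 and Myom1 had adjusted p-values of 0.0351 and 0.0200 by edgeR's quasi-likelihood test, where 48.3% of all genes had an adjusted p under 0.05. With both hearts left out, all 8 genes passed, against 26.2% of all genes, and all 8 had an adjusted p under 0.05, as did 55.1% of all genes. Without aged 4, the heart with the highest atrial genes, 1 of the 8 genes passed, against 15.3% of all genes, and the median was -3.41. The comparison without both aged 3 and young 15 rested on 2 hearts a group and was chosen after the data had been seen. Young 15 and aged 3 lie on the side of the low levels in their groups, and leaving both out removes the low end of each.

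**Figure D3:**
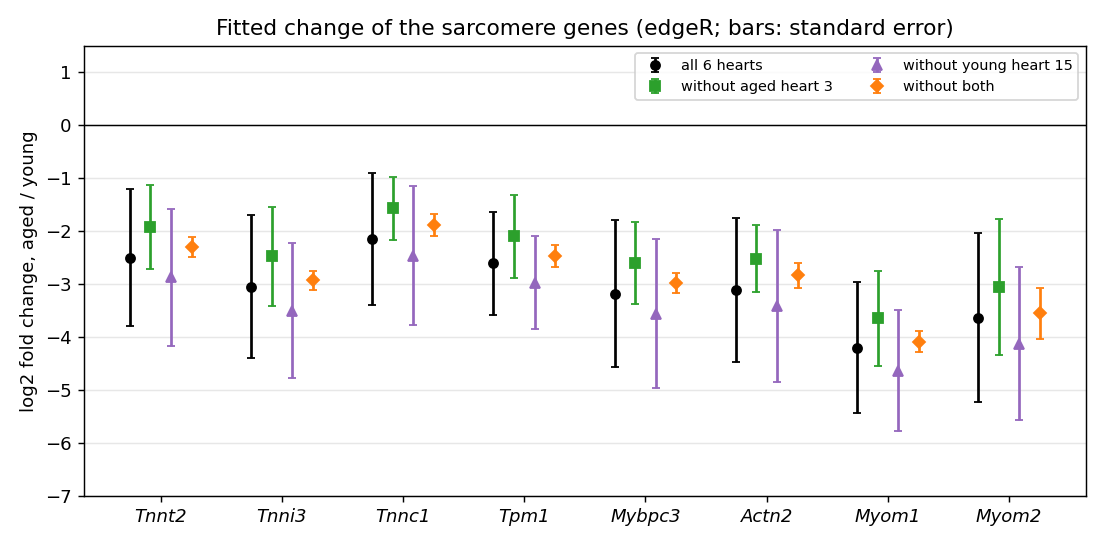
Log2 fold change of each sarcomere gene, aged against young donor hearts, from edgeR's quasi-likelihood fit with all 6 hearts, without aged 3, without young 15 and without both. Bars are standard errors. The points lie below 0 in these 4 fits, from -2.15 for Tnnc1 to -4.21 for Myom1 with all hearts. With libraries scaled to cardiomyocyte genes, which is not plotted, 4 of the 8 turned positive.

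To compare the members within a heart, the log2 CPM of each gene was set against the mean of the other 7 genes of the same heart, a difference that does not depend on the scaling of the library. Tnnt2 was the only gene for which this difference did not overlap between the groups. It was 1.46, 1.44 and 1.78 in young 3, 13 and 15 and 1.83, 2.08 and 2.21 in aged 3, 4 and 7, so that Tnnt2 stood higher among the members in aged donor hearts by 0.48 on the log2 scale (exact permutation test, two-sided, p = 0.1, the smallest possible). The nearest hearts of the 2 groups lay close, with young 15 at 1.78 and aged 3 at 1.83. With 8 genes tested and no correction, 1 separated gene at p = 0.1 by the exact permutation test cannot be told from chance. With 1 added to each CPM value before the log, the groups overlapped for all 8 genes.

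Myom1 lay lowest among the members in most hearts by this measure, at -1.62, -1.46 and -1.87 in the young and -1.78, -2.68 and -3.10 in the aged donor hearts. The difference between the groups was -0.87 on the log2 scale, with aged 3 inside the young range (exact permutation test, p = 0.2). Myom2 was uneven within both groups, at -0.12, -0.20 and -1.99 in the young and -1.55, -1.92 and -0.28 in the aged donor hearts (exact permutation test, p = 0.6). Tpm1 stood 4.46 above the other members in aged 3, against 1.46 to 2.23 in the other 5 hearts (exact permutation test, p = 0.2). Tnnc1, Tnni3, Mybpc3 and Actn2 gave exact permutation p-values of 0.3, 0.8, 0.3 and 0.4, respectively. With young 15 left out, 5 of the 8 genes no longer overlapped on this measure, against 1 with all hearts and 1 or 2 with any other heart left out. Groups with fewer hearts separate more easily, and no share over all genes was computed for this measure.

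**Figure D4:**
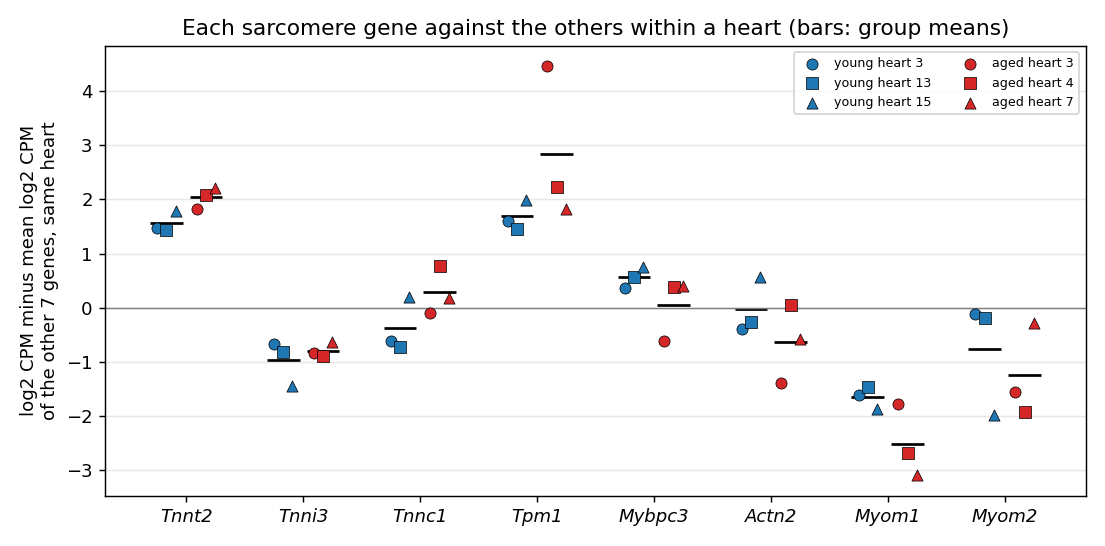
Log2 CPM of each sarcomere gene minus the mean log2 CPM of the other 7 in the same heart, for young (blue) and aged (red) donor hearts. Tnnt2 is separated between the groups, from 1.44 to 1.78 in young and from 1.83 to 2.21 in aged donor hearts, and Tpm1 of aged 3 stands apart at 4.46.

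Per length of transcript, in the deposited FPKM, fragments scaled to transcript length and to library total, Tnnt2 was the highest member in 5 of the 6 hearts, with 5252, 5131 and 1909 FPKM in young 3, 13 and 15 and 1471 and 1649.7 FPKM in aged 4 and 7. In aged 3 it was at 38.4 FPKM and Tpm1 was the highest, at 73.5 FPKM. By mean log2 FPKM the order was Tnnt2, Tpm1, Tnnc1, Tnni3, Mybpc3, Actn2, Myom2 and Myom1. Among neighbours in that order, Tpm1 and Tnnc1 did not differ beyond their spread over hearts (mean log2 difference 0.10, SD 1.00), nor did Mybpc3 and Actn2 (0.08, SD 0.27). Tpm1 lay above Tnnc1 in only 2 of the 6 hearts, young 3 and aged 3. Tnnt2 lay above Tpm1 in 5 of the 6 hearts, by a mean of 0.96 (SD 0.95). Tnnc1 lay above Tnni3 in all 6 hearts, by 0.69 on the log2 scale (SD 0.62), and Tnni3 above Mybpc3 by 1.34 (SD 0.56). Actn2 lay above Myom2 in all 6 hearts, by 1.19 (SD 1.10), and Myom2 above Myom1 by 1.11 (SD 0.92).

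Troponin I and C are needed in equal numbers in the troponin complex, but their transcripts need not be. The FPKM ratio of Tnni3 to Tnnc1 was 0.999, 0.971 and 0.379 in young 3, 13 and 15 and 0.653, 0.375 and 0.622 in aged 3, 4 and 7. Young 15 thus lay within the aged range, and the 2 other young hearts were close to an equal level. The ratio of Tnnt2 to Tnnc1 was 2.41, 2.52 and 1.78 in the young and 2.21, 1.51 and 2.33 in the aged donor hearts, and the groups overlapped. At the M-band, the ratio of Myom2 to Myom1 was 2.78, 2.42 and 1.04 in the young donor hearts and 1.29, 1.78 and 6.21 in the aged ones. The groups overlapped, since aged 3 and 4 lay between young 15 and the other young hearts.

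The members were also compared with the other genes of their families, which are used in other muscles or in cells other than muscle. Such a share also falls when the member alone falls, so it is not a result separate from the member's own level. Tpm1 made up 87.9%, 84.9% and 51.4% of the summed FPKM of Tpm1 to Tpm4 in young 3, 13 and 15 and 5.07%, 39.8% and 36.6% in aged 3, 4 and 7. The groups did not overlap (74.7% ± 20.3 in young and 27.1% ± 19.2 in aged, SD, n = 3 each, exact permutation test, p = 0.1). Tpm3 and Tpm4, which nonmuscle cells use, were higher in aged donor hearts, with log2 fold changes of 1.47 (adjusted p = 0.126) and 1.18 (adjusted p = 0.119) by edgeR's quasi-likelihood test. Neither passed the limits without aged 3, where the log2 fold changes were 1.26 (adjusted p = 0.262) and 1.00 (adjusted p = 0.255). Without young 15, Tpm3 passed with a log2 fold change of 2.35 (adjusted p = 0.00224 by edgeR's quasi-likelihood test), where 26.9% of all genes were higher. Tpm3 measured 112, 119 and 389 CPM in the young and 726, 483 and 504 CPM in the aged donor hearts. The muscle form Tpm2 was lower, at 226, 401 and 212 CPM in the young and 99.1, 121 and 77.6 CPM in the aged donor hearts (log2 fold change -1.49, adjusted p = 0.0916).

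Actn2 made up 90.6%, 91.2% and 60.4% of the summed FPKM of Actn1, Actn2 and Actn4 in the young donor hearts and 0.905%, 35.5% and 37.8% in the aged ones. The groups did not overlap (80.7% ± 17.6 and 24.7% ± 20.7, SD, n = 3 each, exact permutation test, p = 0.1). Actn1, a form found in nonmuscle cells, measured 63.0, 62.9 and 464 CPM in young 3, 13 and 15 and 241, 526 and 294 CPM in aged 3, 4 and 7 and did not pass the limits (log2 fold change 0.85, adjusted p = 0.491 by edgeR's quasi-likelihood test). The level of Actn1 in young 15 was thus within the range of the aged donor hearts. Of the 4 partners Tnnt3, Tpm4, Actn1 and Actn4, 1 was higher by the limits with all hearts, where 13.2% of all genes were. Without young 15, 3 of these 4 were higher, where 26.9% of all genes were.

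The cardiac troponins kept nearly the whole of their families in most hearts. Tnni3 made up 99.6% or more of Tnni1 and Tnni3 in every heart (exact permutation test, p = 0.5). Tnni1, the slow skeletal and fetal form, held 55, 42 and 41 reads in young 3, 13 and 15 and 0, 10 and 16 reads in aged 3, 4 and 7. It was lower by the limits (log2 fold change -2.95, adjusted p = 0.109 by edgeR's quasi-likelihood test). The call held without aged 3 (-2.35) and without young 15 (-3.15). Tnnt2 made up 99.8%, 99.9% and 99.5% of Tnnt1 to Tnnt3 in the young and 69.3%, 99.3% and 99.2% in the aged donor hearts (exact permutation test, p = 0.1). The share of 69.3% came from aged 3, in which Tnnt2 was low and Tnnt3 was at 14.2 CPM, against 8.08 to 12.5 CPM in the other hearts. Myom2 made up 73.6%, 70.7% and 51.1% of Myom1 and Myom2 in the young and 56.4%, 64.1% and 86.1% in the aged donor hearts (exact permutation test, p = 0.9).

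Beyond the 8 members, 37 other sarcomere genes were examined, and 35 passed the filter. Of these, 18 were lower in aged donor hearts, against 19.0% of all genes, and 1, Tpm3, was higher, against 13.2%. The median log2 fold change was -2.87. For 25 of the 35 all aged hearts lay below all young ones, as was the case for 20.6% of all genes tested. Without aged 3 the number of lower genes was 25, against 14.7% of all genes, and Tpm3 no longer passed the limits. In that fit Myl4, an atrial myosin light chain that was highest in aged 4, was the 1 gene called higher, against 7.47% of all genes. Without young 15, 19 genes were lower, against 24.2% of all genes, and Tpm3 was the 1 higher gene, against 26.9%. With libraries scaled to the cardiomyocyte genes outside the sarcomere, 1 of all 13784 genes was lower, so that at most 1 of the 18 calls held on that scale. Lmod2 and Myot were not tested and were nearly without reads in every heart. Lmod2 held 1 read in aged 4 and Myot 2 reads in young 13, and both were at 0 in the other hearts.

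By place in the sarcomere, 6 of 9 thin-filament genes, 3 of 8 thick-filament genes, 5 of 9 Z-disc genes and 2 of 2 M-band genes were lower. Among genes of assembly and turnover 2 of 7 were lower. The share over all genes was 19.0%. Without aged 3 these counts were 7, 4, 6, 2 and 6, against 14.7% of all genes, and the count for assembly and turnover moved most. Without young 15 they were 6, 3, 5, 2 and 3, against 24.2% of all genes. The thin-filament gene with the largest fall was Actc1, cardiac actin, at 21380.3, 25556 and 3400.3 CPM in the young and 24.0, 1729 and 184 CPM in the aged donor hearts (log2 fold change -4.70, adjusted p = 0.122 by edgeR's quasi-likelihood test). Tnnt1 had the smallest value of that group, a log2 fold change of 0.77 that did not pass the limits.

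The pair of cardiac myosin heavy chains differed in the same hearts. Myh6, the fast alpha chain that predominates in the adult rat ventricle, measured 26873, 29955 and 1085 CPM in young 3, 13 and 15 and 13.6, 515 and 323 CPM in aged 3, 4 and 7. Its log2 fold change of -6.09 (adjusted p = 0.0962 by edgeR's quasi-likelihood test) was the largest in size among the thick-filament genes. Myh7, the slow beta chain, had the smallest, -0.25 (adjusted p = 0.903), with 868, 830.2 and 1039 CPM in the young and 10.6, 451 and 1843 CPM in the aged donor hearts. The FPKM ratio of Myh6 to Myh7 was 30.4 and 35.5 in young 3 and 13, 1.03 in young 15 and 1.26, 1.12 and 0.172 in aged 3, 4 and 7. Young 15 therefore lay within the aged range and far from the other young hearts in this ratio.

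At the Z-disc, Ldb3 had the largest value, a log2 fold change of -4.47 (adjusted p = 0.0919 by edgeR's quasi-likelihood test). Flnc, filamin C, which is recruited to damaged myofibrils, had the smallest, 0.17 (adjusted p = 0.921). Flnc measured 515, 708 and 2280 CPM in the young and 70.3, 1761 and 2121 CPM in the aged donor hearts, so that young 15, aged 4 and aged 7 were its high hearts. At the M-band both genes were lower, Myom3, another myomesin, at 32.5, 40.6 and 1.07 CPM in the young and 0.591, 0.569 and 0.766 CPM in the aged donor hearts (log2 fold change -5.26) and Obsl1 with a log2 fold change of -2.14 (adjusted p = 0.0916 by edgeR's quasi-likelihood test for each). Among the genes of assembly and turnover, Smyd1 had the largest value, -3.62, and Trim54 the smallest, -0.75.

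**Figure D5:**
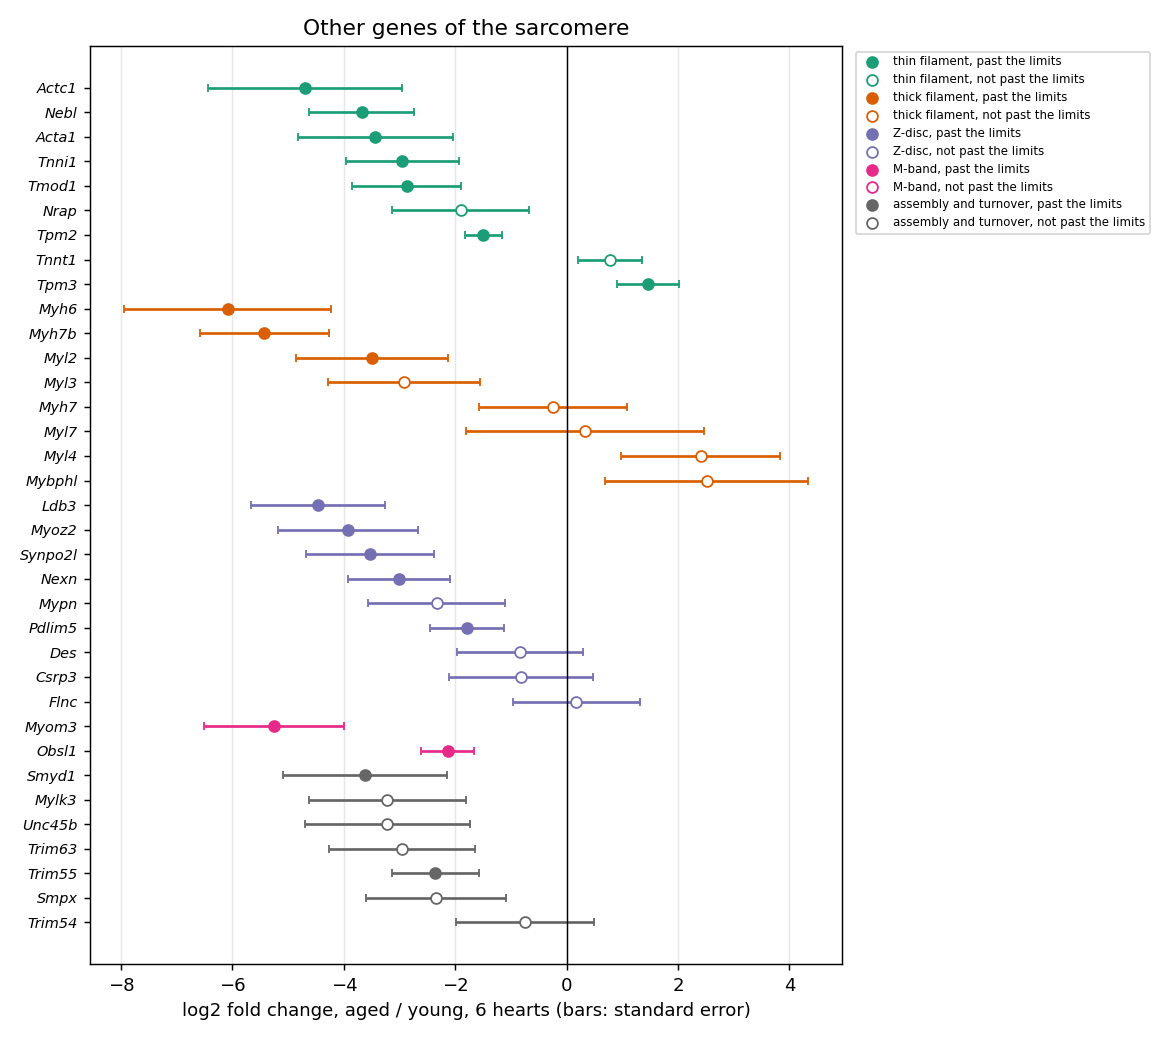
Log2 fold change, aged against young donor hearts with all 6 hearts, of the 35 other sarcomere genes tested, colored by place in the sarcomere. Filled points passed the limits and bars are standard errors. The median is -2.87 with TMM scaling, and the 18 lower calls run to -6.09 for Myh6, with Tpm3 the 1 higher call at 1.47. The Tpm3 call was lost without aged 3 and held without young 15.

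The genes whose levels ran most like the members were sought among 9554 genes with a mean of at least 10 CPM, by Pearson's correlation of log2 CPM with the member mean over the 6 hearts. The 5 closest were Ckm, Trim63, Chchd10, Tesc and Myl3, with r between 0.9985 and 0.9992, as a description across hearts of which aged 3 and young 15 span much of the range. Ckm, the muscle creatine kinase, measured 2336, 2604 and 315 CPM in the young and 3.42, 225 and 226 CPM in the aged donor hearts. Trim63 encodes a muscle ubiquitin ligase and Myl3 a myosin light chain, and both were among the other sarcomere genes. Trim63 measured 225, 243 and 49.3 CPM in the young and 0.558, 33.4 and 32.7 CPM in the aged donor hearts.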

How the data were processed

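Poly-A RNA of 6 left ventricles was sequenced as paired reads. The authors deposited read counts and FPKM per gene on Rnor_6.0. The submitters' processing notes name HISAT2 2.0.5, StringTie 1.3.3b, featureCounts 1.5.0-p3, DESeq2 1.16.1 and GATK 3.7, and use of strand is not given in the sources used here, so antisense or overlapping reads could be counted with a gene. Libraries held 21457509 to 24560869 reads, and 3 reads corresponded to 0.0985 to 0.191 CPM. Counts were tested with edgeR 4.0.16 (R 4.3.3; filterByExpr, TMM, quasi-likelihood test) on the whole table, with a fold change above 1.5 or under 0.67 and unadjusted p under 0.05 as limits and Benjamini-Hochberg adjusted p beside them. Log2 CPM used a prior count of 2. DESeq2 1.42.0 and limma 3.58.1 were alternatives. Levels within a heart were compared by two-sided exact permutation tests. Each member was set against the other 7, since 2 of the 10 had no row, where the test had been laid out for all 10. The p-values measure the spread between these hearts. The members, gene lists and tests were chosen with earlier results of these data known. Named were all members, their family partners, the other sarcomere genes of largest and smallest log2 fold change in each part of the sarcomere (1 gene of that list is not reported here), and the 5 genes most correlated with the members. Promoters came from RefSeq (GRCr8).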

Additional observations from a re-analysis of the deposited data

How the results depend on the processing

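No paired analysis was possible because the groups share only 1 animal number, which names different hearts. There were 3 hearts a group with large spread within both, and the lowest member count was 125 reads, in aged 3. The parts of this spread and of read depth in the member results were not tested. With all hearts, 4436 genes passed the limits, 2 of them members, and the median log2 fold change of the members was -3.08. Leaving out 1 heart at a time gave 2432 to 7214 genes, 1 to 6 members and medians from -3.46 to -2.50. Leaving out aged 3 and young 15 together gave 7396 genes and 8 members. Myom1 passed without any 1 heart, and it alone did without young 3, young 13, aged 4 or aged 7, where the Tpm1 call was lost, against 6 members without aged 3 and 5 without young 15. The count of members that did not overlap when set against the others was 1, with a range of 1 to 5 without 1 heart and 0 on log2(CPM + 1). That of family shares was 3, also with each heart left out. With all hearts these 3 were Tnnt2, Tpm1 and Actn2, whose own levels did not overlap either. Groups with fewer hearts separate more easily, and no share over all genes was computed for either count. Scaling to cardiomyocyte genes outside the sarcomere gave 8817 genes, 0 members and a median of -0.036. Under it Tnnt2 (0.43), Tnni3 (0.19), Tnnc1 (0.55) and Tpm1 (1.02) turned positive and Myom1 was at -0.81. None of these positive values passed the limits, with adjusted p from 0.645 (Tpm1) to 0.928 (Tnni3) by edgeR's quasi-likelihood test. By construction that scale removes what the members share with those genes, and the cause of the change of sign was not tested. DESeq2's Wald test gave 8 members, and limma-voom with quality weights gave 7504 genes and 8 members; the cause was not tested. An adjusted p under 0.1 in place of the unadjusted limit left 2572 genes and 1 member, and one under 0.05 left 0 genes and 0 members by edgeR's quasi-likelihood test. The median of all genes was 0.016 with TMM, 0.46 with library totals alone (1441 lower, 3147 higher) and 0.30 with totals without mitochondrial genes (1806 lower, 2561 higher), and the member count was 2 under each.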
